A study of Mus musculus with 4 samples.

Results

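A set of 9 genes that mark mouse retinal ganglion cells as a class was examined: Thy1, Sncg, Nrn1, Stmn2, Chrna6, Rbpms, Rbpms2, Ebf1 and Ebf3. The rule takes them by name as pan-ganglion-cell markers and uses no threshold on a measured value, although the list was drawn up with earlier results of these data known. Each was found once among the 78334 gene identifiers of the counts table. All 9 of 9 passed the filter on low counts, as did 11427 genes in all. Retinal ganglion cells are the only neurons that send axons from the eye to the brain, and their axons form the optic nerve. The markers cover the cell surface, the cytoplasm, the cholinergic synapse and the nucleus, and several of them, Rbpms among them, are used to count surviving ganglion cells after injury because they label nearly all subtypes. Some are known to fall in ganglion cells after axon damage, so that marker loss and cell loss are often hard to separate.

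Messenger RNA was measured in ganglion cells of WT mice of both sexes, 2 weeks after optic nerve crush (ONC), an injury that severs ganglion cell axons. The 2 groups were the anti-miR132-3p shRNA group and the scramble shRNA group, with 2 libraries each. In both groups an AAV2 vector that also expressed the red reporter mCherry was injected into the vitreous at 8 weeks of age, in a volume of 2 µl per eye and 2 weeks before the crush. In both groups cells from 10 retinas per condition were pooled, panned with an antibody to Thy1 and sorted for mCherry, and about 5000 cells went into each replicate. About 40% of ganglion cells were transduced, so the sort selected a subset of the surviving cells, and Thy1 was itself the antigen of the purification in every library. The table's column names give miR132 for one group and mCherry for the other. Because mCherry is made from both vectors, the mCherry columns could be assigned to scramble only by elimination, and the directions of all differences rest on that assignment.

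The target and the hairpin inserts are shown because they define the comparison. The mature microRNA lies at chr11:75173723-75173744 on the plus strand (GRCm38.p6, sequence from RefSeq), and miR-212-3p, from chr11:75173443-75173464 on the same strand, is shown because it carries the same seed. Capitals mark the seed, bases 2 to 8, in the microRNAs and its match in the anti-miR132-3p insert. The anti-miR132-3p insert complements the microRNA over its whole length, and the scramble insert holds no seed match.
mmu-miR-132-3p: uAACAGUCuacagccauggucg
mmu-miR-212-3p: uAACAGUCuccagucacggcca
anti-miR132-3p insert: cgaccatggctgtaGACTGTTa
scramble insert: tcgagggcgacttaaccttagg

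The annotated 3′ UTRs of the 9 marker genes (GENCODE M21) were searched on the transcript strand for the 3 usual seed matches. These are the 8mer GACTGTTA, the 7mer-m8 GACTGTT, which the 8mer contains, and the 7mer-A1 ACTGTTA, which the 8mer also contains. No marker gene held the 8mer or the 7mer-m8, and among 10400 tested genes with an annotated 3′ UTR 15.1% held at least one of these 2 matches. The markers' longest 3′ UTRs ran from 271 bases in Sncg to 3343 bases in Ebf1, against a median of 1348 bases over those genes. Ebf3, on chromosome 7, held the only match, a 7mer-A1 that starts at base 155 of a 2698-base 3′ UTR and is capitalised here with its surroundings.
Ebf3 site: attttatttaaACTGTTAagaatcaagcc
One of the 3 matches was present in 24.5% of the tested genes with a 3′ UTR. A match is a description of sequence, and its absence says only that these letters are not in the annotated window.

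The libraries held 1732416 and 1731199 counts with anti-miR132-3p, against 1845090 and 1846637 counts with scramble. The 2 libraries of a group differed by no more than sampling noise, with a chi-square per degree of freedom of 0.998 for the anti-miR132-3p pair (p = 0.568) and 1.01 for the scramble pair (p = 0.175), against 4.41 to 4.45 across groups. Each pair was therefore counted as 1 sample, giving n = 1 per group, no SD and no replicate check, and the p-values below compare the reads of these libraries and not the conditions. Levels are CPM, counts scaled to a common library size by TMM, where TMM sets library sizes so that most genes do not shift. A group's level sums its pair, and each fold has an exact 95% interval that covers counting error only, since reads amplified by PCR without molecular identifiers are not independent molecules. A gene with 3 counts stands at 1.732 and 1.733 CPM of the library total with anti-miR132-3p, against 1.626 and 1.625 CPM with scramble. "Rose" and "fell" mark genes with an adjusted p under 0.05 in edgeR's quasi-likelihood test with the Benjamini-Hochberg procedure applied across the 11427 genes.

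Thy1 rose in the anti-miR132-3p libraries, and Stmn2, Chrna6 and Ebf1 fell, while Sncg, Nrn1, Rbpms, Rbpms2 and Ebf3 did not pass the test. Thus 4 of 9 markers were called, where 23.8% of all tested genes were. One direction at a time, 1 of 9 rose, where 13.5% of all tested genes did, and 3 of 9 fell, where 10.4% of all tested genes did. Calls of genes that fell were more frequent at high counts, at 33.4% of the 1642 tested genes with at least 1000 counts over the 4 libraries, a class that holds Thy1, Sncg, Stmn2 and Chrna6, and at 6.48% of the 9785 genes with fewer counts. Genes that rose made up 17.1% of the class of at least 1000 counts and 12.9% of the other. The median log2 fold change was -0.28 over the 9 markers and -0.003 over all tested genes. In these bulk samples, fewer cells of a type and less RNA per cell cannot be told apart.

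**Figure D1:**
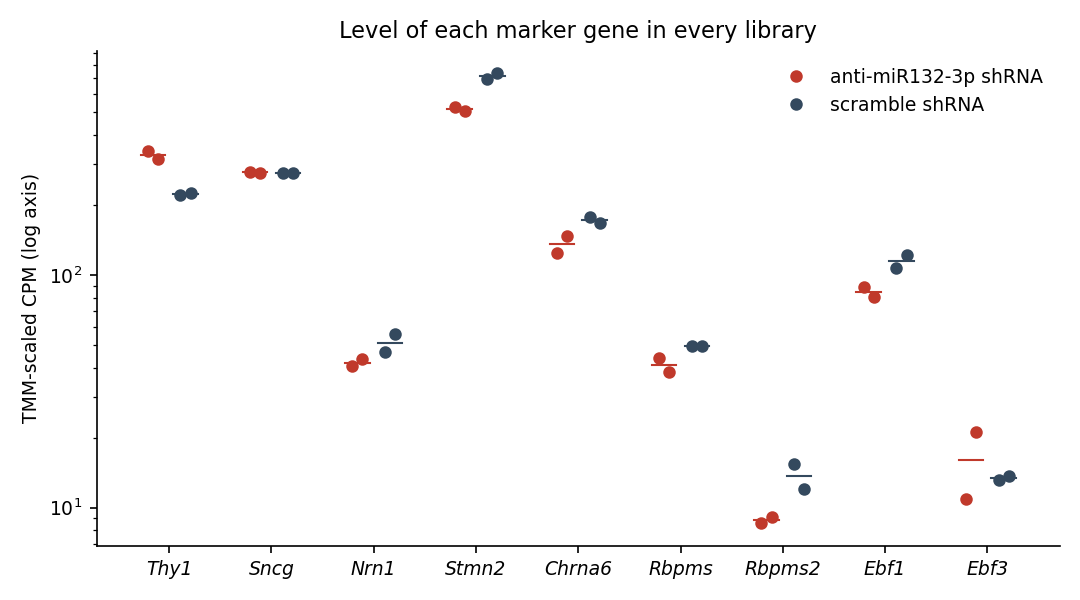
Level of the 9 marker genes in each library, in TMM-scaled CPM on a log axis, with the anti-miR132-3p libraries in red on the left of each pair and the scramble libraries in dark blue on the right. Points are libraries and bars are the level of the summed pair. Thy1 stands higher and Stmn2, Chrna6 and Ebf1 lower with anti-miR132-3p, Sncg is nearly equal, and the Ebf3 libraries of one group lie on both sides of those of the other.

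Both surface proteins anchored to the membrane by glycolipid were measured well above the floor. Thy1, an immunoglobulin-superfamily glycoprotein on the surface of ganglion cells and their axons (ENSMUSG00000032011), had 341 and 316 CPM in the anti-miR132-3p libraries, against 221 and 226 CPM in the scramble libraries. Both anti-miR132-3p libraries were higher than both scramble libraries. The summed level was 1.47-fold higher (95% interval 1.34 to 1.61), with a log2 fold change of 0.56 and an adjusted p of 7.41e-06 in edgeR's quasi-likelihood test. Nrn1, neuritin, a secreted or membrane-bound protein that promotes neurite growth, had 40.6 and 43.5 CPM with anti-miR132-3p, against 46.5 and 55.7 CPM with scramble. The anti-miR132-3p libraries lay below the scramble libraries, but the interval of the fold, 0.658 to 1.03, includes 1 and the adjusted p was 0.2 in edgeR's test. Correction for GC content and transcript length moved the Nrn1 log2 fold change to 0.01, against -0.28 without it. The Nrn1 exons overlap those of Fars2 on the opposite strand over 501 of 2249 bases, and since the strand setting of the counting is not given in the sources used here, reads of the 2 genes cannot be told apart there. Fars2 itself had 31 and 33 counts with anti-miR132-3p, against 50 and 45 counts with scramble.

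The 2 cytoplasmic markers differed from each other. Stmn2, a stathmin that binds tubulin in growing and regenerating axons, had 525 and 506 CPM in the anti-miR132-3p libraries, against 698 and 736 CPM in the scramble libraries. It was the most counted of the 9 markers, and neither anti-miR132-3p library reached the lower scramble library. Stmn2 was 1.39-fold lower with anti-miR132-3p (95% interval 1.31 to 1.48), with a log2 fold change of -0.47 and an adjusted p of 7.79e-07 in edgeR's quasi-likelihood test. Sncg, gamma-synuclein, a small soluble protein abundant in ganglion cell bodies and axons, had 277 and 275 CPM with anti-miR132-3p, against 274 and 274 CPM with scramble. The anti-miR132-3p libraries were the higher pair by a margin within counting error. The Sncg fold was 1.01 (95% interval 0.921 to 1.1; adjusted p = 0.902 by edgeR), which does not show that its level was the same.

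Chrna6, the alpha-6 subunit of nicotinic acetylcholine receptors, had 124.6 and 147.1 CPM in the anti-miR132-3p libraries, against 178 and 168 CPM in the scramble libraries. Both anti-miR132-3p libraries were below both scramble libraries. The summed level was 1.27-fold lower (95% interval 1.13 to 1.44), with a log2 fold change of -0.35 and an adjusted p of 0.00965 in edgeR's test. The call was lost with correction for GC content and length, which gave -0.17 (adjusted p = 0.17, edgeR), and in DESeq2's Wald test (adjusted p = 0.154).

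Rbpms and Rbpms2 are paralogous RNA-binding proteins, and Rbpms is the marker most used to identify ganglion cells in the mouse retina. Rbpms had 44 and 38.4 CPM with anti-miR132-3p, against 49.3 and 49.7 CPM with scramble. Rbpms2 had 8.58 and 9.16 CPM with anti-miR132-3p, against 15.3 and 12 CPM with scramble, from 31 and 50 summed counts. For both genes the anti-miR132-3p libraries were the lower pair and the counting intervals still include no change. The folds were 0.832 for Rbpms (95% interval 0.664 to 1.04; adjusted p = 0.22 by edgeR) and 0.649 for Rbpms2 (95% interval 0.401 to 1.04; adjusted p = 0.148 by edgeR). Rbpms2 was the only marker past a fold of 1.5 in either direction, a size that 6.9% of 12983 genes with at least 20 counts reached downward and 13.9% upward. Of the 50-base windows of Rbpms2 transcripts, 12.4% also occur in the gene Gm3470, which had 3 and 2 counts with anti-miR132-3p, against 1 and 2 counts with scramble.

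Ebf1 and Ebf3 are helix-loop-helix transcription factors of the EBF family, which acts in the differentiation of ganglion cells and of some other retinal neurons. Ebf1 had 89.2 and 80.1 CPM in the anti-miR132-3p libraries, against 107 and 122 CPM in the scramble libraries. Neither anti-miR132-3p library reached the scramble libraries. Ebf1 was 1.36-fold lower (95% interval 1.17 to 1.58), with a log2 fold change of -0.44 and an adjusted p of 0.00696 in edgeR's test, and the call was lost in DESeq2's Wald test (adjusted p = 0.136). Ebf3, the marker with the largest ratio between 2 libraries of a group, had 10.9 and 21.2 CPM with anti-miR132-3p, against 13.1 and 13.7 CPM with scramble. It is the one marker whose groups overlap, its fold was 1.2 (95% interval 0.8 to 1.79; adjusted p = 0.589 by edgeR), and its log2 fold change turned to -0.30 without anti-miR132-3p replicate 2.

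The libraries of the groups did not overlap for 8 of 9 markers, where 61.8% of tested genes did not, so that this separation is common in the table. Both anti-miR132-3p libraries were above both scramble libraries for 2 markers, where 31.1% of tested genes were, and below them for 6 markers, where 30.7% of tested genes were. When any 1 of the 4 libraries was left out, edgeR's test called 0 of all tested genes in either direction, so none of the 4 calls could hold (3 to 4 markers at an unadjusted p under 0.05), with adjusted p from 0.19 to 0.201 for Thy1 and Stmn2, 0.19 to 0.264 for Ebf1 and 0.201 to 0.293 for Chrna6 in edgeR's test. Each of the 4 kept its direction in those fits, with log2 fold changes of 0.50 to 0.61 for Thy1, -0.52 to -0.44 for Stmn2, -0.54 to -0.35 for Ebf1 and -0.47 to -0.23 for Chrna6. The Thy1 and Stmn2 calls held in 6 of 13 alternatives, DESeq2's Wald test and the correction for GC content and length among them. With the pairs summed and a coefficient of variation of 0.1 between samples assumed, an alternative chosen after the data were seen, the edgeR likelihood ratio test called none of the 9 (2 at an unadjusted p under 0.05).

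**Figure D2:**
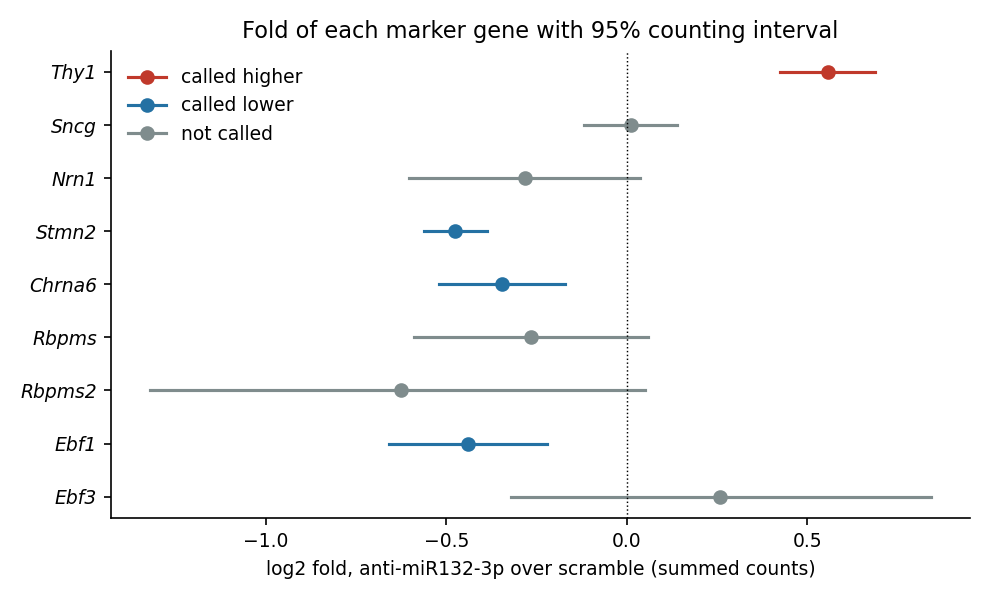
Log2 fold of each marker gene, anti-miR132-3p over scramble, from summed TMM-scaled counts, with exact 95% intervals of counting error. Red marks the gene that rose, blue those that fell and grey those that did not pass edgeR's test. Intervals for 5 of the 9 genes include no change, and that of Rbpms2, with the fewest counts, is the widest.

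Levels of different genes were compared only per kilobase of exon, in CPM per kb. With anti-miR132-3p the order was Sncg at 324, Thy1 at 109.6, Stmn2 at 92, Chrna6 at 46.8, Nrn1 at 18.7, Ebf1 at 8.68, Rbpms at 6.28, Rbpms2 at 3.54 and Ebf3 at 1.74 CPM per kb, and every pair of neighbours was separate by its exact Poisson intervals. With scramble the order was Sncg at 322, Stmn2 at 128, Thy1 at 74.6, Chrna6 at 59.5, Nrn1 at 22.7, Ebf1 at 11.8, Rbpms at 7.55, Rbpms2 at 5.46 and Ebf3 at 1.45 CPM per kb, and only Rbpms and Rbpms2 overlapped. Thy1 and Stmn2 thus changed places between the groups and the other 7 genes kept their rank. The levels depended on the length used. With the longest transcript in place of all exons those of Thy1, Stmn2, Ebf1, Ebf3 and Rbpms were over 1.5 times as high, for example 189.3 CPM per kb for Thy1 and 151 CPM per kb for Stmn2 with anti-miR132-3p, against 129 CPM per kb for Thy1 and 210 CPM per kb for Stmn2 with scramble. Rbpms was then at 16.2 CPM per kb with anti-miR132-3p and 19.4 CPM per kb with scramble, against 14.2 CPM per kb with anti-miR132-3p and 19.2 CPM per kb with scramble for Ebf1, which turns the order of the 2 genes round.

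Ratios between markers do not depend on library scaling, but they reuse the counts behind the calls above. Ratios of Thy1, which rose, to the genes that fell were therefore bound to differ and are a description. The count ratio of Thy1 to Stmn2 was 0.637 with anti-miR132-3p, against 0.312 with scramble, a 2.04-fold difference (95% interval 1.83 to 2.28). The ratio of Thy1 to Ebf1 differed 1.99-fold (1.67 to 2.38) and that of Thy1 to Chrna6 1.87-fold (1.61 to 2.18) in the same direction. Of the 36 pairs of markers, 12 had an interval that excludes 1, and 7 of these involve Thy1, whose ratio to Ebf3 alone did not. The share of such pairs among all genes was not computed.

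Among the 28 pairs without Thy1, 5 had an interval that excludes 1, and each of the 5 sets Sncg or Ebf3 against one of the genes that fell. Sncg to Stmn2 was 0.536 with anti-miR132-3p and 0.382 with scramble, a 1.4-fold difference (95% interval 1.26 to 1.56). Ratios among the 3 genes that fell are a description, since each was called in the same direction. Ebf1 to Stmn2 differed 1.03-fold between the groups (95% interval 0.87 to 1.21), Chrna6 to Ebf1 1.07-fold (0.878 to 1.3) and Chrna6 to Stmn2 1.09-fold (0.955 to 1.252). Rbpms to Nrn1 was 0.98 with anti-miR132-3p and 0.968 with scramble (1.01-fold; 95% interval 0.735 to 1.39). Intervals of this width do not show that the pairs moved alike.

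**Figure D3:**
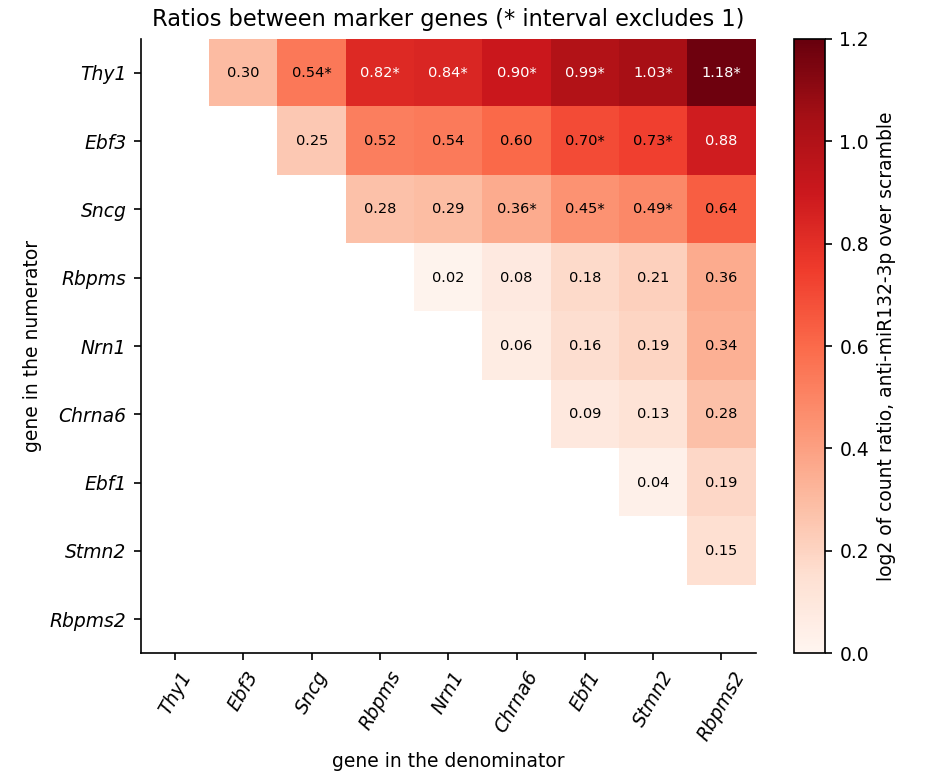
Log2 of the count ratio of the gene in the row to the gene in the column with anti-miR132-3p over the same ratio with scramble, for 36 pairs of marker genes. Darker red is a larger difference and a star marks an exact 95% interval that excludes no difference. Stars fill 7 of the 8 squares of the Thy1 row, and squares among Rbpms, Nrn1, Chrna6, Ebf1, Stmn2 and Rbpms2 have none.

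Summed over the 9 markers, the level on library totals was 1475 and 1449 CPM in the anti-miR132-3p libraries, against 1585 and 1644 CPM in the scramble libraries. The sum was 1.1-fold lower with anti-miR132-3p (95% interval 1.06 to 1.15). Stmn2 made up 35.6% of the marker counts with anti-miR132-3p and 44% with scramble, and Thy1 22.7% with anti-miR132-3p and 13.7% with scramble. Without Thy1, the antigen of the panning, the sum was 1131 CPM with anti-miR132-3p and 1393 CPM with scramble, 1.23-fold lower (95% interval 1.18 to 1.29). Thy1 was also the only marker that rose, so leaving it out was bound to make the sum fall further, and this larger fall is a description only. Stmn2 held 1802 of the 5064 marker counts with anti-miR132-3p and 2622 of the 5960 with scramble. The lower sum of the 9 markers thus lay mostly in Stmn2 and does not show a fall of the markers as a set.

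Some other nicotinic subunits rose where Chrna6 fell. The Chrna6 call, as given above, was lost with correction for GC content and length and in DESeq2's Wald test. Of 12 further subunit genes 6 were tested, with a median log2 fold change of 0.73. Of these 6, 4 rose and none fell, where 13.5% and 10.4% of all tested genes did. Chrnb3, the beta-3 subunit that assembles with alpha-6 and whose gene is the neighbour of Chrna6 on chromosome 8, stood at 482 CPM with anti-miR132-3p and 436 CPM with scramble, 1.11-fold higher (95% interval 1.03 to 1.19; adjusted p = 0.0291 by edgeR). The interval of Chrnb3 lies above 1 and that of Chrna6 below it. Chrnb2, a beta subunit of many neuronal receptors, stood at 91.8 CPM with anti-miR132-3p and 50.6 CPM with scramble, 1.82-fold higher (1.51 to 2.19; adjusted p = 1.24e-04 by edgeR). Chrna2, an alpha subunit, stood at 48.1 CPM with anti-miR132-3p and 23.2 CPM with scramble, 2.07-fold higher (1.58 to 2.72; adjusted p = 4.02e-04 by edgeR).

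Chrna7, which forms receptors of a single subunit type, rose from fewer counts, at 15.7 CPM with anti-miR132-3p and 7.93 CPM with scramble (1.98-fold higher, 1.24 to 3.23; adjusted p = 0.0296 by edgeR). Chrna4 had 16.6 CPM with anti-miR132-3p and 10.9 CPM with scramble, Chrna3 had 14.9 CPM with anti-miR132-3p and 22.1 CPM with scramble, and neither passed the test. Chrna1, Chrna9 and Chrna10 were listed at 0 in all 4 libraries, and Chrna5, Chrnb1 and Chrnb4 were too low to test. The 4 calls held with correction for GC content and length, and 2 of them, Chrnb2 and Chrna2, held in DESeq2's Wald test.

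**Figure D4:**
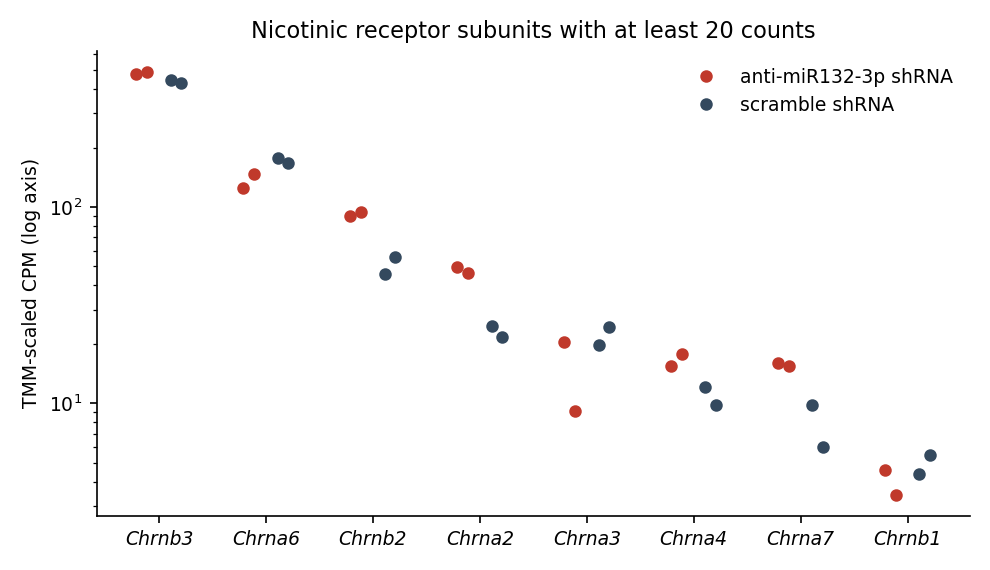
Level of Chrna6 and the other nicotinic receptor subunit genes with at least 20 counts, in TMM-scaled CPM on a log axis, with anti-miR132-3p libraries in red on the left and scramble libraries in dark blue on the right. Points are libraries. Chrnb3, Chrnb2, Chrna2 and Chrna7 are higher with anti-miR132-3p, and Chrna6 is lower.

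Of the 3 further stathmins 2 fell, where 10.4% of all tested genes did. All 3 have at least 1000 counts over the 4 libraries, a class in which 33.4% of genes fell. Among the stathmins, Stmn4 fell with Stmn2, at 769 CPM with anti-miR132-3p and 1077 CPM with scramble (1.4-fold lower, 95% interval 1.33 to 1.47; adjusted p = 1.69e-07 by edgeR). Stmn1 fell 1.11-fold (adjusted p = 0.00699 by edgeR), and with correction for GC content and length its log2 fold change was 0.01, without a call. Stmn3 had 384 CPM with anti-miR132-3p and 412 CPM with scramble and did not pass the test. All 3 further stathmins are tubulin-binding proteins like Stmn2.

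Sncb, beta-synuclein, a relative of Sncg found at synapses, rose, at 1101 CPM with anti-miR132-3p and 975 CPM with scramble (1.13-fold higher, 1.08 to 1.18; adjusted p = 0.00179 by edgeR), and its log2 fold change was -0.0035 with correction for GC content and length. Ebf2 had 5 summed counts with anti-miR132-3p and 11 with scramble, Ebf4 had 17 summed counts with anti-miR132-3p and 18 with scramble, and Nrn1l, the paralog of Nrn1, had 1 summed count in each group, so none of the 3 was tested.

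The label of the cells was read against 30 further genes enriched in ganglion cells, of which 25 were tested. Their median log2 fold change was -0.03, and 0.02 with correction for GC content and length. Of the 25, 3 rose and 7 fell, where 13.5% and 10.4% of all tested genes did. Several of those that fell have at least 1000 counts over the 4 libraries, a class in which 33.4% of genes fell and 17.1% rose. The sum of the 30 genes was 6287 and 6355 CPM on library totals in the anti-miR132-3p libraries, against 7203 and 7183 CPM in the scramble libraries. Syt4, a synaptotagmin and the most counted of them, fell to 1631 CPM with anti-miR132-3p, against 2452 CPM with scramble (1.5-fold lower, 95% interval 1.45 to 1.56; adjusted p = 8.66e-11 by edgeR). It held 5700 of the 21894 counts of the 30 genes with anti-miR132-3p and 8968 of the 26554 with scramble. The lower sum of the 30 genes thus lay mostly in Syt4 and does not show a fall of the list as a whole. Gap43, a growth cone protein, had 959 CPM with anti-miR132-3p and 1135 CPM with scramble, a fall that was lost with correction for GC content and length (log2 fold change 0.03). Satb1, a chromatin organiser, had 28.6 CPM with anti-miR132-3p and 42.4 CPM with scramble and fell (adjusted p = 0.048 by edgeR), a call that was lost with scaling by library totals (adjusted p = 0.0825, edgeR) and in DESeq2's Wald test (adjusted p = 0.336).

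Of the 3 genes that rose, Tubb3, a neuronal beta-tubulin, had 360 CPM with anti-miR132-3p and 253 CPM with scramble, 1.42-fold higher (95% interval 1.3 to 1.55; adjusted p = 1.38e-05 by edgeR), and was called with correction for GC content and length and in DESeq2's Wald test as well. Slc17a6, the vesicular glutamate transporter of ganglion cells, was present at 300.1 CPM with anti-miR132-3p and 313 CPM with scramble, while Pou4f2, a transcription factor that defines many ganglion cells, had 7 summed counts with anti-miR132-3p and 8 with scramble. These 3 genes were picked after their values were seen.

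Markers of other retinal cells also moved between the groups. The 17 amacrine markers summed to 3251 and 3306 CPM in the anti-miR132-3p libraries, against 2023 and 1982 CPM in the scramble libraries. Of 9 tested 6 rose and none fell, where 13.5% and 10.4% of all tested genes did. Gad2, a GABA-synthesising enzyme, had 514 CPM with anti-miR132-3p and 373 CPM with scramble, and Gad1, Slc32a1, Tfap2b and Ptf1a were listed at 0 in all 4 libraries. Whether a gene listed at 0 throughout had no RNA or lost its reads in the authors' counting was not tested, here and in the other lists. Slc6a9, a glycine transporter, had 46.1 CPM with anti-miR132-3p and 16.9 CPM with scramble.

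The 13 Müller glia markers summed to 2326 and 2337 CPM with anti-miR132-3p, against 1744 and 1745 CPM with scramble. Of 7 tested 2 rose and none fell, where 13.5% and 10.4% of all tested genes did, and Cyp26a1 was listed at 0. Dkk3, a secreted Wnt modulator, had 1595 CPM with anti-miR132-3p and 1081 CPM with scramble, and Apoe, a lipid carrier, 62.4 CPM with anti-miR132-3p and 18.9 CPM with scramble. Clu, clusterin, had 547 CPM with anti-miR132-3p and 553 CPM with scramble. Without Dkk3, an alternative chosen after the data were seen, the other 12 genes summed to 721 CPM with anti-miR132-3p and 673 CPM with scramble, 1.07-fold higher (95% interval 1.01 to 1.13). Rlbp1 and Glul, which act in the visual cycle and in glutamine synthesis, had 7.44 and 65.5 CPM with anti-miR132-3p, against 12 and 70.3 CPM with scramble, and did not pass the test. Both were chosen for mention with their values known.

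The 14 rod markers summed to 29.4 and 26.6 CPM with anti-miR132-3p, against 108 and 104 CPM with scramble. Of 4 tested rod markers 3 fell, where 10.4% of all tested genes did. Sag, rod arrestin, had 2 summed counts with anti-miR132-3p and 131 with scramble, and Gnat1, Pde6g, Prph2 and Rcvrn were among those listed at 0 in all 4 libraries. The 8 cone markers summed to 4.33 CPM with anti-miR132-3p and 19.8 CPM with scramble, and the 6 astrocyte markers to 21.7 CPM with anti-miR132-3p and 34.1 CPM with scramble.

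The remaining lists were all of lower summed level than the amacrine and Müller glia lists. Bipolar markers summed to 154 CPM with anti-miR132-3p and 143 CPM with scramble, horizontal cell markers to 241 CPM with anti-miR132-3p and 270.3 CPM with scramble, microglia markers to 70.2 CPM with anti-miR132-3p and 59.9 CPM with scramble, and endothelial markers to 11 CPM with anti-miR132-3p and 3.25 CPM with scramble. The amacrine sum, and the Müller glia sum mainly through Dkk3, lay higher with anti-miR132-3p while 6 of the 9 ganglion cell markers lay lower, and the part of other cells in the marker differences was not tested.

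**Figure D5:**
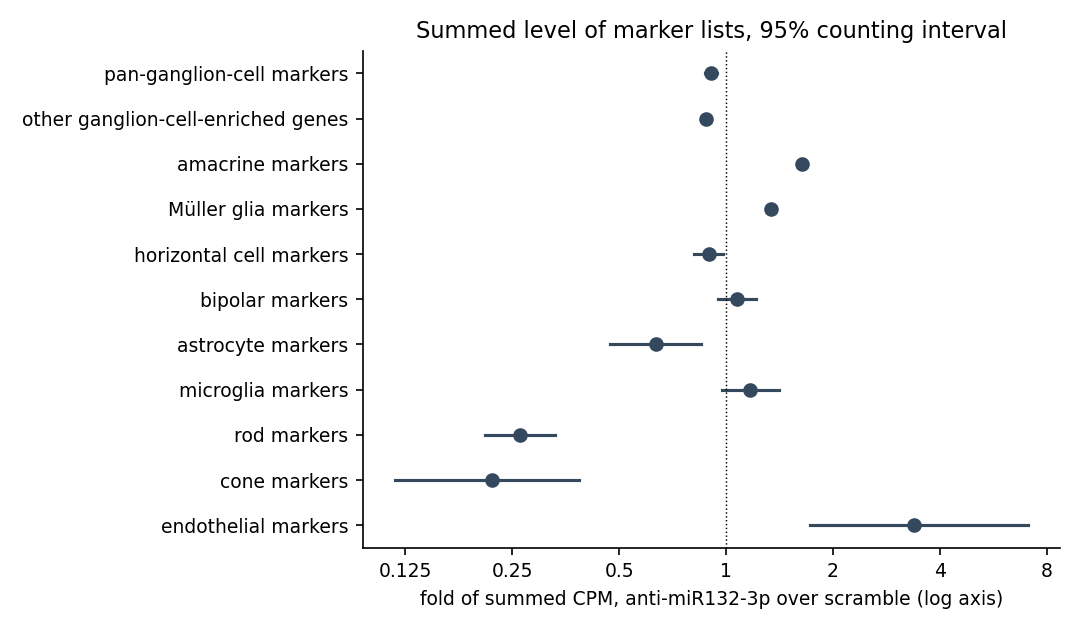
Fold of the summed level of each marker list, anti-miR132-3p over scramble on library totals, on a log axis with exact 95% counting intervals. The sums of the 9 pan-ganglion-cell markers, mostly through Stmn2, and of the 30 other ganglion-cell-enriched genes, mostly through Syt4, lie below 1. Amacrine markers and, mainly through Dkk3, Müller glia markers lie above 1, and rod and cone markers lowest.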

How the data were processed

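The authors deposited whole-number counts per gene for 4 libraries, made from polyadenylated RNA read as pairs of 100 bases. The submitters' processing notes name Trimmomatic 0.39, HISAT2 2.2.1, SAMtools 1.10 and, with no version, Cuffdiff, Cuffnorm and Cufflinks, and the build GRCm39. Which program counted the reads, against which annotation and with which strand setting, is not given in the sources used here. GENCODE M21, of an older build, gave names for 51486 identifiers, exon lengths, GC content and 3′ UTRs, so no gene coordinates are given.

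Genes were filtered with filterByExpr of edgeR 4.0.16 (R 4.3.3, limma 3.58.1), and the 11427 left hold 98.6% of all counts. After TMM scaling the groups were compared with glmQLFTest on a glmQLFit with legacy=FALSE. Fold intervals are exact conditional binomial (Clopper-Pearson), and levels per kb have exact Poisson intervals. Alternatives covered DESeq2 1.42.0, other scaling, filters and thresholds, left-out libraries, a replicate block and a spline correction with 4 degrees of freedom for GC content and exon length over 11273 genes. Only the edgeR quasi-likelihood fit was tried on simulated counts. These were Poisson counts without variation between samples, so they cannot check calls between conditions.

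All 9 markers and all genes of companion lists of at most 12 genes could be named. From longer lists, the 2 most abundant and the 2 with the largest fitted log2 fold change could be named. The genes listed at 0, Tubb3, Slc17a6, Pou4f2, Rlbp1 and Glul fall outside this rule. Members and lists were chosen with earlier results of these data known. The labels do not give separate animals for the libraries of a group. A planned protein comparison was not run, and results of some list genes are not reported here.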

Additional observations from a re-analysis of the deposited data

How the results depend on the processing

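The median log2 fold change of the 9 markers, -0.28, stayed within -0.33 and -0.17 in every alternative run. Thy1, Stmn2, Chrna6 and Ebf1 kept their direction throughout, but their calls did not hold in all. Of the markers, 1 rose and 3 fell, and of all genes 1540 rose and 1183 fell. Without a low-count filter 0 markers rose and 0 fell (5 at an unadjusted p under 0.05, edgeR), as did 1 and 2 of all genes. DESeq2's Wald test called Thy1, which rose, and 1 marker that fell, Stmn2, and 481 genes that rose and 274 that fell, with 1551 genes given no adjusted p. At an adjusted p under 0.01 the counts over all genes were 856 and 547. With each library left out in turn, 0 to 0 markers and 0 to 0 genes were called in either direction by edgeR, although 2652 to 2767 genes and 3 to 4 markers had an unadjusted p under 0.05. With summed pairs and an assumed coefficient of variation of 0.1, chosen after the data were seen, 0 markers, 470 genes that rose and 56 that fell were called, and at 0.2 it was 0 markers (0 at an unadjusted p under 0.05), 50 and 6 genes. The Nrn1 log2 fold change was 0.014 with correction for GC content and length (adjusted p = 0.965, edgeR), and that of Ebf3 ran from -0.30 to 0.66 over the left-out libraries, the lowest without anti-miR132-3p replicate 2 (adjusted p = 0.409, edgeR). The cause was not tested. The correlation between deviations of same-numbered libraries was 0.013, and the value of -0.013 for the other pairing follows from it by calculation. Since the libraries of a group differed by no more than sampling noise, it cannot show whether the samples were paired. A replicate block gave 1 marker that rose and 3 that fell, with 1740 and 1437 of all genes. Depth limits Rbpms2 and Ebf3 most.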
